A study of Mus musculus and Homo sapiens with 180 samples.

Results

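The comparison described here is the response of MV4;11 cells that carry a control guide RNA to the Menin inhibitor (MENi) VTP50469. It rests on 6 RNA-seq libraries, 3 treated with VTP50469 at 500 nM for 48 h and 3 treated with the solvent DMSO, of 180 samples in the whole series, and the libraries were taken by their labels of cell line, guide and treatment. MV4;11 is a human acute myeloid leukaemia line that carries an MLL–AF4 fusion and an internal tandem duplication of FLT3. All 6 libraries came from cells with Cas9 and a control guide against a genomic site without known function, grown as a polyclonal population. The DMSO samples carry a label of 72 h, so drug and vehicle differ in the labelled time as well, and the effects of drug and time cannot be told apart. Libraries used for reference were 3 of the same control cells under the DOT1L inhibitor (DOT1Li) SGC0946 at 5 μM for 72 h, and 6 of MOLM13, a human MLL–AF9 leukaemia line with its own control guide, under the same dose and times of VTP50469 and DMSO. The fit also used 9 libraries of an MV4;11 PCGF1 knockout, a single clone, whose levels are not compared here. They entered the choice of genes tested, the scaling and the estimate of the spread between libraries. With only the 6 libraries compared, 10036 genes were tested in place of 11252. Nothing in the labels says whether replicates were grown as separate cultures, so p-values measure the spread between these libraries, which may be partly technical.

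MLL (KMT2A) is a histone H3K4 methyltransferase that is held on its target genes by Menin, an adaptor protein encoded by MEN1. Fusions of MLL with elongation factors such as AF4 and AF9 keep developmental genes active, above all the HOXA cluster and its cofactor MEIS1, in part through recruitment of the H3K79 methyltransferase DOT1L. Menin inhibitors occupy the MLL-binding pocket of Menin and displace the complex from chromatin, and they are known for switching off MEIS1 and for driving myeloid maturation in leukaemias of this kind.

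Counts assigned to genes ranged from 4465551 to 4792045 in the DMSO libraries and from 4838328 to 5812045 in the VTP50469 libraries. A pair of very abundant rows, neither with an entry in the annotation, took a large share of these counts. The more abundant of them took 22.9 to 26.83% under DMSO and 28.35 to 39.75% under VTP50469, so levels are given as CPM, the count of a gene scaled to a common library size, with library sizes set by TMM, a scaling that trims such rows. The libraries separated by treatment on the first principal component, and replicate libraries differed by more than sampling noise, so none was counted as a duplicate. The labelled cell type was checked against defining genes. SPI1, CD33, FLT3, MEIS1 and HOXA9 were detected in every library of the 6, whereas CEBPA was listed at 0 in every library, and CD3E and HBB were at 0.

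Of 11252 genes tested, 2362 (21.0%) differed between VTP50469 and DMSO at an adjusted p under 0.05 in edgeR's quasi-likelihood test. Of these, 1191 (10.6% of genes tested) rose and 1171 (10.4%) fell. The rises were larger. The median log2 fold change (log FC) of raised genes was 1.0 and that of lowered genes −0.56, against 0.011 over all genes tested. Genes that reached 2 CPM in fewer than 2 DMSO libraries gave 322 of the rises and 17 of the falls, and their fitted changes rest on few DMSO counts. Among the other 9534 genes 869 rose and 1154 fell. In all, 595 genes rose more than 2-fold (5.29%) and 207 fell more than 2-fold (1.84%), and 226 rose and 53 fell more than 4-fold. VTP50469 and DMSO libraries did not overlap for 1124 of the raised and 1138 of the lowered genes, against 36.7% of all genes tested. The balance of rises and falls depends on the scaling, because scaling by total counts moved the median gene to −0.41 and gave 451 rises and 4034 falls. Changes below are therefore relative to the bulk of genes. Counts of list members called in this comparison stand against 10.6% raised and 10.4% lowered of all genes tested. In bulk RNA, fewer cells of a type and less RNA per cell cannot be told apart.

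**Figure D1:**
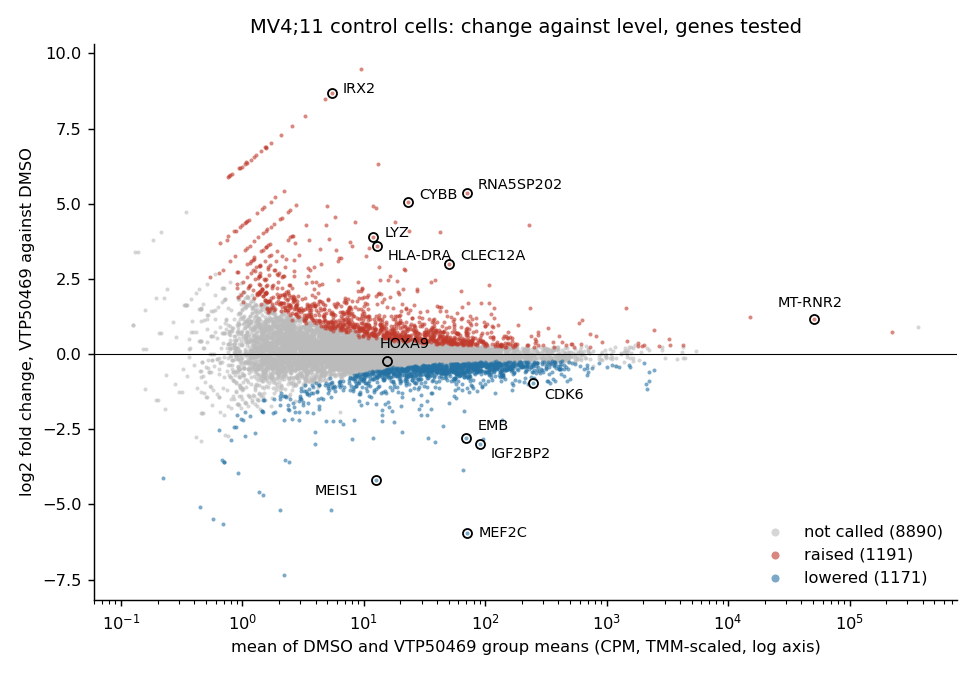
Log2 fold change of VTP50469 against DMSO (y axis) against the mean level in CPM (x axis, log scale) for each gene tested with a mean over 0.1 CPM in MV4;11 control cells, with raised and lowered genes coloured. Rises sit at all levels, whereas falls gather among genes of higher level, and genes without a count in a group carry a fitted value that depends on the prior count of the fit.

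The direction of the calls varied with the level of the gene. When genes were split into 4 classes of equal size by mean CPM, the share raised stayed between 10.1 and 11.0%. The share lowered was 2.67% in the lowest class, 4.69% in the next, 11.5% in the third and 22.8% in the highest. The 1718 genes that reached 2 CPM in fewer than 2 DMSO libraries passed the filter only with other libraries, which favours rises among genes of low level. Of these genes 322 rose and 17 fell. The part of the filter and of low counts in this trend was not tested. Among called genes, the median absolute log FC was 2.02 in the lowest class and 0.47 in the highest.

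Counts of RNA classes other than messenger RNA also moved with the treatment. The summed level of rRNA genes and rRNA pseudogenes, mainly 5S copies, was 6.0 to 7.94 CPM under DMSO and 168 to 198 CPM under VTP50469, and all 4 rows tested rose. Mitochondrial rRNA summed to 37700 to 43200 CPM under DMSO and 85300 to 98100 CPM under VTP50469. Of 25 miscellaneous RNAs tested, such as Y RNAs and 7SK copies, 12 rose and 1 fell, and of 22 small nuclear RNAs 9 rose and 1 fell. Among 29 small nucleolar and Cajal body RNAs 11 rose and 2 fell. The summed levels of the small nuclear RNAs overlapped between the groups, with 482 to 679 CPM under DMSO and 584 to 705 CPM under VTP50469, as did those of the small nucleolar and Cajal body RNAs, with 343 to 536 and 478 to 556 CPM. Mitochondrial tRNA was lower in sum, with 2000 to 2350 CPM under DMSO and 1840 to 1890 CPM under VTP50469, although 3 of 18 rose and 3 fell. The line of counts with no feature held 6.463 to 6.986% of all counts under DMSO and 11.46 to 13.47% under VTP50469. In MOLM13 the rRNA class was at 6.65 to 10.1 CPM under DMSO and 7.94 to 10.5 CPM under VTP50469. Among protein-coding genes 999 of 9928 tested rose (10.1%) and 1110 fell (11.2%), and a fit restricted to nuclear protein-coding rows called 2276 genes. The part of these RNA classes in the other results was not tested beyond that fit. Per the methods of the study, the libraries were made to read the 3′ ends of RNA. Whether the counts of these classes follow the amount of RNA was not tested.

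Genes bound by MLL fusions or known to need Menin had the lowest median of the lists with at least 6 genes tested. Of 27 tested, 15 fell and 3 rose, with a median log FC of −0.83, and their summed level was 2490 to 2500 CPM under DMSO and 1290 to 1460 CPM under VTP50469. MEF2C, a MADS-box transcription factor of myeloid and lymphoid progenitors, and MEIS1, the TALE homeodomain cofactor of HOX proteins, had the largest falls of the list. Their promoters are shown with that of IRX2, the gene with the largest fitted rise among those with a symbol and at least 10 CPM, since these are the genes at the ends of the response. Each run is 300 bases of hg38, from 250 bases before to 50 bases after the start of the canonical transcript, which can lie inside the span of the gene, read 5′ to 3′ on the strand of the gene. Capitals mark matches to the ETS-like motifs GGAAGT and GAGGAAG on either strand, found in 29.0% and 14.5% of all promoter windows of genes tested.
MEIS1, chr2:66434875-66435174, plus strand: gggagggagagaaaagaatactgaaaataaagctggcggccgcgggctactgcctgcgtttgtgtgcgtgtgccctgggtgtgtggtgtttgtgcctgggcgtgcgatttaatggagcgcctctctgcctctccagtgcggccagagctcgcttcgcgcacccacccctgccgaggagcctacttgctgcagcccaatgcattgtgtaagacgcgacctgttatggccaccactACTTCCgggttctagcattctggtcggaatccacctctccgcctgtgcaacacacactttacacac
MEF2C, chr5:88883135-88883434, minus strand: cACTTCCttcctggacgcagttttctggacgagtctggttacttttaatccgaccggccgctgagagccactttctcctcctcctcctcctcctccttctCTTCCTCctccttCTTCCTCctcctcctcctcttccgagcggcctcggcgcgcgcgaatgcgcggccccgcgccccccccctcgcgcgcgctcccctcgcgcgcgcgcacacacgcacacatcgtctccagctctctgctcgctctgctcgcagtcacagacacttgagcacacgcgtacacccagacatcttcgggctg
IRX2, chr5:2751628-2751927, minus strand: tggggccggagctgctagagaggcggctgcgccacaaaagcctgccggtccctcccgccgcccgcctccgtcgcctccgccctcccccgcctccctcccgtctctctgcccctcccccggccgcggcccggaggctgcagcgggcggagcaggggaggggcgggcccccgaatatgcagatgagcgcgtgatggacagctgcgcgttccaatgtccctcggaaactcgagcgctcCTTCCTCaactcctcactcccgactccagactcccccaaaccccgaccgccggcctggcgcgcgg
A match describes the letters and is not a binding site. The MEIS1 window held 18 CG dinucleotides, that of MEF2C 32 and that of IRX2 34, against a mean of 26.5 over all windows.

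MEF2C (ENSG00000081189) was at 141, 142 and 136 CPM in the DMSO libraries and at 0.897, 3.33 and 2.75 CPM in the VTP50469 libraries. The groups were far apart, with a log FC of −5.95 ± 0.21 (SE) and an adjusted p of 9.27e-20. MEIS1 was at 22.6, 25.2 and 24.0 CPM under DMSO and at 0.673, 2.22 and 1.1 CPM under VTP50469, a log FC of −4.19 ± 0.27 (adjusted p 1.76e-13). It is encoded on chromosome 2, from 66433452 to 66573869 on the plus strand (hg38). IGF2BP2, an mRNA-binding protein, fell from 162, 157 and 162 CPM to 19.3, 21.4 and 20.4 CPM (log FC −2.98). SATB1, a chromatin organiser, fell from 179, 158 and 172 CPM to 25.1, 21.7 and 25.6 CPM (log FC −2.81). None of these groups overlapped. EMB, which encodes the membrane glycoprotein embigin, had 125, 117 and 123 CPM under DMSO and 19.7, 14.2 and 19.0 CPM under VTP50469 (log FC −2.78 ± 0.14, adjusted p 2.81e-16). Smaller falls were those of BCL2, the anti-apoptotic regulator, with log FC −1.63, of the histone demethylase family gene JMJD1C with −1.27, of the forkhead factor FOXP1 with −1.13 and of RUNX2 with −0.83. JMJD1C lies opposite REEP3, which also fell (log FC −2.39), and the strand setting of the counts is not given in the sources used here, so reads of the pair cannot be told apart.

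Several targets moved otherwise. The 3 list members that rose were CCNA1, a meiotic cyclin, with log FC 2.0, the adaptor gene LPXN with 0.59 and the SUMO protease gene SENP6 with 0.41. LPXN was at 33.8, 37.2 and 33.6 CPM under DMSO and at 56.3, 55.3 and 45.7 CPM under VTP50469 (adjusted p 0.000539), and under scaling by total counts it was no longer called (log FC 0.18). ZEB2, a zinc-finger repressor, had a log FC of −0.19 (adjusted p 0.179) and overlapping groups. The same held for TSC22D2 with 0.23 and for SOCS2, a feedback inhibitor of cytokine receptors, with −0.31. The transcription factor genes RUNX1 and MYB, which are often assigned to MLL fusions, had log FC of 0.14 and −0.20 and were not called.

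**Figure D2:**
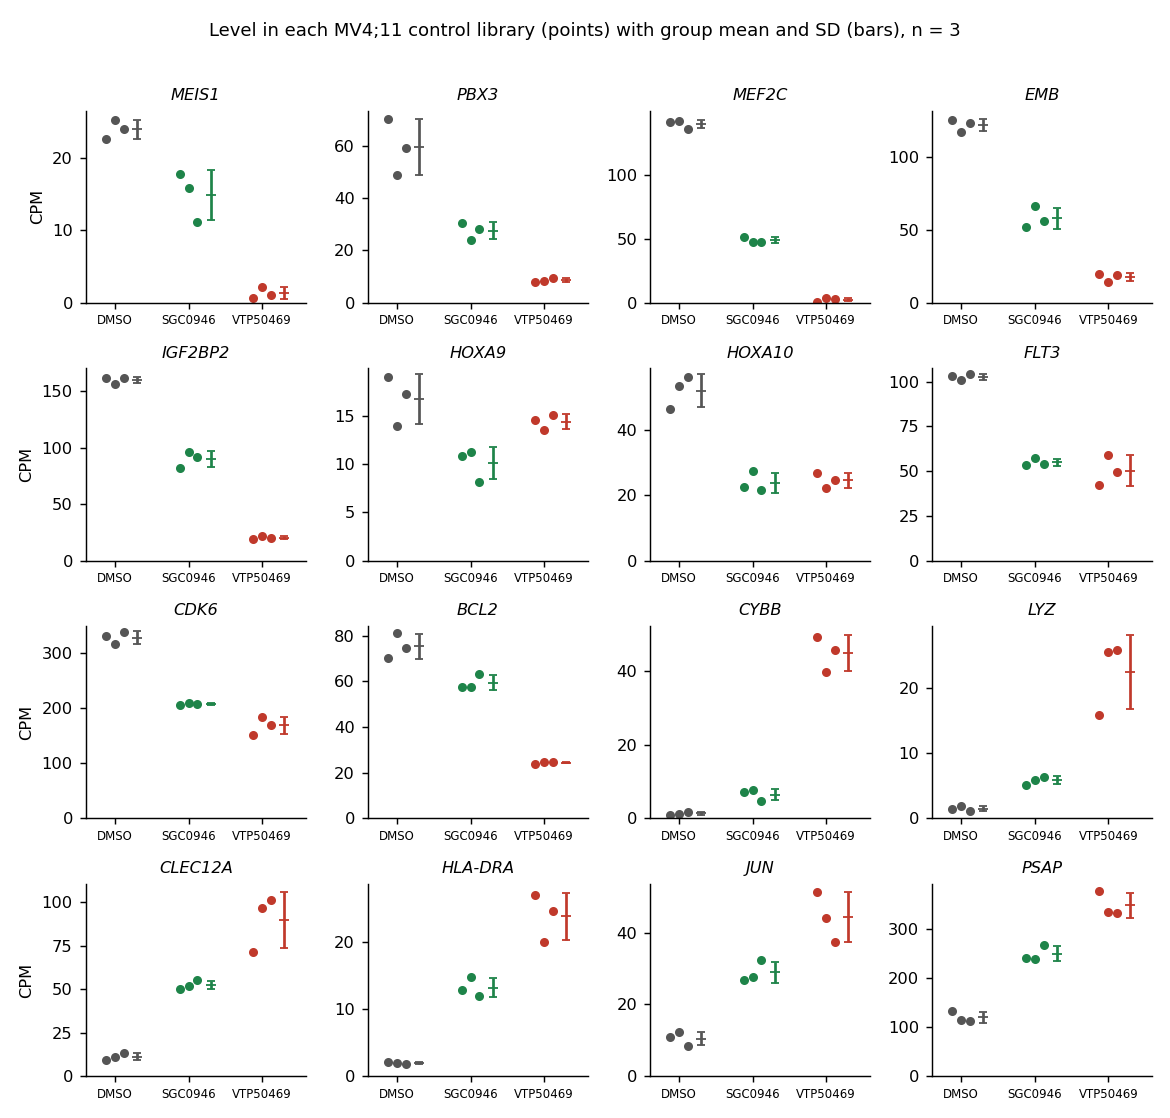
Level in CPM (y axis, linear and from 0) of 16 genes in each MV4;11 control library under DMSO, SGC0946 and VTP50469, with a point for each library and bars for the group mean and SD (n = 3). MEIS1 and MEF2C lie far below DMSO in all 3 VTP50469 libraries, the HOXA9 groups of DMSO and VTP50469 overlap, and CYBB and LYZ lie above DMSO in every VTP50469 library.

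Within the HOX clusters the response was unequal. HOX genes encode the homeodomain factors that pair with MEIS1 and PBX proteins. Of 21 HOXA and HOXB genes listed only 6 passed the filter on low counts, of which 2 fell, 1 rose and 3 were not called. HOXA11 was at 38.7, 33.6 and 39.8 CPM under DMSO and at 17.0, 11.1 and 11.0 CPM under VTP50469, a log FC of −1.50 ± 0.16 (adjusted p 2.08e-08). HOXA10 went from 46.4, 53.4 and 56.0 CPM to 26.7, 22.2 and 24.5 CPM (log FC −1.08 ± 0.15, adjusted p 3.1e-06). Neither pair of groups overlapped. HOXA9 was at 19.1, 14.0 and 17.3 CPM under DMSO and at 14.6, 13.6 and 15.1 CPM under VTP50469. Its groups overlapped and its log FC was −0.22 ± 0.18 (adjusted p 0.404), although with scaling by total counts it was called as lowered with −0.66. HOXA13 was near the filter with 1.11 to 1.83 CPM under DMSO and 1.57 to 2.22 CPM under VTP50469 (log FC 0.28). HOXB3 rose from 1.63, 0.98 and 0.445 CPM to 3.14, 3.89 and 4.96 CPM (log FC 1.91, adjusted p 0.00697). HOXA13 and HOXB3 were under 2 CPM in every DMSO library and passed the filter only through other libraries. Of the other 4 tested 2 fell and none rose (median −0.65). HOXA9 and HOXA10 overlap on the same strand of chromosome 7, and counts of overlapping genes may be split between them.

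Among TALE genes, which encode the partners of HOX proteins, 3 of 7 tested fell and none rose (median log FC −0.31, or −0.14 without DMSO replicate 1). PBX3 fell from 70.3, 49 and 59.1 CPM under DMSO to 8.08, 8.34 and 9.36 CPM under VTP50469 (log FC −2.80 ± 0.18, adjusted p 2.63e-13). PKNOX1 fell by 0.64 on the log2 scale (adjusted p 0.0125, but 0.0802 without VTP50469 replicate 2). MEIS2, PBX2, TGIF1 and TGIF2 were not called.

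Genes of the complexes that the drug and its relatives act on showed no common direction. Of 22 tested Menin, MLL and elongation genes, 4 rose and 5 fell, with a median log FC of 0.01. MEN1 itself, the drug target, had a log FC of 0.04. ELL2, a subunit of the super elongation complex, rose from 3.67, 3.18 and 3.11 CPM to 12.3, 10.6 and 9.36 CPM (log FC 1.69, adjusted p 1.5e-05). The methyltransferase gene KMT2C rose with 0.63 and the fusion partner gene MLLT10 with 0.55, although both lost their call under scaling by total counts. AFF1 (AF4), the fusion partner in these cells, fell by 0.53 on the log2 scale (adjusted p 0.0417), and DOT1L had a log FC of −0.52. AFF1 lost its call on leaving out any library but DMSO replicate 3 (adjusted p 0.0829 to 0.179), and MLLT10 on leaving out any but DMSO replicate 1 (0.0792 to 0.256). Of the whole list, 2 or 3 members fell when any of the 6 libraries was left out. Reads of the 3′ end of AFF1 may come from the normal gene or from the fusion, which cannot be told apart. Of 25 Polycomb genes tested, 1 rose and 6 fell (median −0.10). The share lowered was 24.0%, against 10.4% of all genes tested and 22.8% of the highest class by level. PCGF1 was at 4.89, 3.67 and 7.33 CPM under DMSO and at 6.28, 6.39 and 6.88 CPM under VTP50469, with overlapping groups (log FC 0.29, adjusted p 0.623). BCOR, its partner in PRC1.1, a non-canonical Polycomb complex that ubiquitinates H2A, had a log FC of −0.40 ± 0.15 at an adjusted p of 0.0462, with overlapping groups, and it kept its call only on leaving out VTP50469 replicate 3 (adjusted p 0.0546 to 0.327 without each of the other libraries). RYBP and SKP1 fell by 0.42 and 0.38 on the log2 scale. RYBP was not called without VTP50469 replicate 2 (adjusted p 0.0502). Without DMSO replicate 2, VTP50469 replicate 1 and VTP50469 replicate 2, the Polycomb genes that fell numbered 2, 3 and 2. The rise, of JARID2, was lost without DMSO replicate 3 or VTP50469 replicate 2 or 3.

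Markers of maturation moved in the other direction. Of 36 monocyte and macrophage markers, 18 were too low to be tested, and of the 18 tested 10 rose and 1 fell, with a median log FC of 0.73. A gene that is low under DMSO passed the filter only through other libraries, which favours rises among the members tested. Of all genes tested, 1718 reached 2 CPM in fewer than 2 DMSO libraries, and 322 of them rose and 17 fell. Among the monocyte markers these were 4, LYZ and ITGAX included, and of the other 14 tested 8 rose and 1 fell (median 0.62). LYZ, which encodes lysozyme, was at 1.43, 1.96 and 1.11 CPM under DMSO and at 15.9, 25.6 and 25.9 CPM under VTP50469 (log FC 3.89 ± 0.31, adjusted p 4.33e-11). ITGAX, the integrin CD11c, rose from 0.204, 0.735 and 0.222 CPM to 3.14, 4.17 and 4.13 CPM (log FC 3.26). The groups of both genes were apart. The lipopolysaccharide receptor gene TLR4 rose with a log FC of 1.79, the chemokine receptor gene CCR2 with 1.18 and CSF1R, the M-CSF receptor, with 0.76. CCR1 was the member that fell, with −0.40, and it was not called without DMSO replicate 1 or 2 or VTP50469 replicate 1 or 2. ITGAM, the integrin CD11b often used to follow such maturation, was too low to be tested. It had 2 counts over the 3 DMSO libraries and 8 over the 3 VTP50469 libraries, a ratio of 4.62 with a 95% interval of 0.921 to 44.6 that covers counting error only. The TYROBP and FCER1G adaptor genes had log FC of −0.18 and 0.16 and were not called.

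CYBB, the catalytic subunit of the phagocyte NADPH oxidase, was among the largest rises of genes with at least 10 CPM. It was at 1.02, 1.22 and 1.78 CPM under DMSO and at 49.4, 39.7 and 45.7 CPM under VTP50469, a log FC of 5.05 ± 0.26 (adjusted p 9.74e-16). As no DMSO library reached 2 CPM, it passed the filter only through other libraries. Secondary and tertiary granule genes rose in 6 of 7 tested, with a median of 1.12 and no fall. SLPI, a protease inhibitor, rose from 0.815, 1.47 and 1.33 CPM to 11.9, 11.4 and 10.2 CPM (log FC 3.20). The calprotectin genes S100A9 and S100A8 rose with 2.17 and 1.87, and the G-CSF receptor gene CSF3R with 1.12. Of the 25 genes of that list, 18 were not tested, and SLPI and S100A9 reached 2 CPM in fewer than 2 DMSO libraries. Of the other 5, 4 rose and none fell (median 1.05). Primary granule genes, which mark an earlier stage, were mixed, with 3 raised, 1 lowered and 8 of 12 not called (median 0.14). MS4A3 rose from 82.7, 73.7 and 84.5 CPM to 172, 141 and 139 CPM (log FC 0.91), CTSG rose with 0.72 and RNASE3 with 0.43, and PRSS57 fell by 0.64 on the log2 scale. CTSG and RNASE3 were not called with scaling by total counts, and RNASE3 also not without DMSO replicate 2 or 3 or VTP50469 replicate 2 (adjusted p 0.11 to 0.227). MPO and ELANE, the major granule enzymes, had log FC of 0.37 and −0.19 and were not called.

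Stem and progenitor genes gave 2 falls, FLT3 and CDK6, and no rise among 9 tested (median −0.22), or 1 rise without DMSO replicate 3 or VTP50469 replicate 1. Of the 27 genes of that list 18 were not tested, and FLT3 and CDK6 also belong to the list of MLL fusion and Menin targets. Erythroid markers had 3 of 20 members tested, with a rise of BLVRB (log FC 1.23) and a fall of the transferrin receptor gene TFRC (−0.61). Lymphoid markers had 4 of 20 members tested, of which NCAM1 fell from 64.8, 71.8 and 66.9 CPM to 9.2, 7.23 and 10.5 CPM (log FC −2.91). None of the 10 megakaryocyte markers passed the filter.

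Antigen presentation genes were among the strongest rises. MHC class II molecules display peptides to helper T cells and are driven by the coactivator CIITA. Of 16 genes, 9 were tested, of which 5 rose and none fell, with a median log FC of 1.46. Of these 9, 5 reached 2 CPM in fewer than 2 DMSO libraries, among them HLA-DRA, HLA-DMA and CIITA, and of the other 4, HLA-DRB1 and CD74 rose and none fell (median 0.84). HLA-DRA was at 2.04, 1.96 and 1.78 CPM under DMSO and at 26.9, 20 and 24.5 CPM under VTP50469 (log FC 3.61 ± 0.24, adjusted p 2.58e-13). HLA-DRB1, whose counts may be shared with near-identical copies, rose from 4.07, 5.63 and 4.45 CPM to 28.5, 31.7 and 25.1 CPM (log FC 2.6). CIITA rose from 1.22, 3.43 and 1.33 CPM to 6.06, 6.39 and 3.58 CPM (log FC 1.46, adjusted p 0.00513), and the invariant chain gene CD74 rose with 1.32. HLA-DMA had 1 count under DMSO and 23 under VTP50469, a ratio of 26.5 with a 95% counting interval of 4.31 to 1090. The summed level of the class II list was 82.7 to 100 CPM under DMSO and 237 to 259 CPM under VTP50469.

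Interferon response genes rose in 12 of 28 tested and fell in 3 (median 0.58), with 17 of 45 not tested. Leaving aside 7 that reached 2 CPM in fewer than 2 DMSO libraries, 11 of 21 rose and 3 fell (median 0.41). IFI6 rose from 9.78, 6.37 and 10.4 CPM to 27.1, 22.8 and 27.8 CPM (log FC 1.54, adjusted p 5.72e-07). MX2, an antiviral GTPase, rose with 1.5, and HERC5, an ISG15 ligase, with 1.68. The MHC class I genes HLA-C and HLA-B rose with 1.21 and 0.86, and B2M, their light chain, with 0.59. IRF7 and IRF1, both transcription factors of the response, fell by 1.94 and 0.39 on the log2 scale, and ISG15 had a log FC of −0.07. IRF7 lost its call on leaving out any library but DMSO replicate 2 (adjusted p 0.0731 to 0.154), and HERC5 without DMSO replicate 3 (0.0725) or VTP50469 replicate 1 (0.146). With scaling by total counts 5 members of this list rose and 4 fell, and 1 fell without VTP50469 replicate 1 or 2.

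Lysosome genes rose in 20 of 37 tested and none fell, with a median of 0.53. These genes encode the acid hydrolases and membrane proteins of degradation. PSAP, the precursor of the saposins, was at 133, 114 and 113 CPM under DMSO and at 377, 333 and 332 CPM under VTP50469 (log FC 1.53 ± 0.097, adjusted p 1.29e-13). GM2A, a ganglioside activator, rose from 25.3, 22.0 and 29.8 CPM to 71.1, 70.0 and 68.3 CPM (log FC 1.44). FUCA1 rose with 1.71, the cathepsin gene CTSD with 0.96 and NPC1, the cholesterol exporter of lysosomes, with 1.04. LAMP1 and LAMP2, the major membrane glycoproteins, had log FC of −0.05 and 0.04 and were not called. With scaling by total counts 6 members of this list rose and 2 fell, and without DMSO replicate 3 there was 1 fall.

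Surface antigens used to follow or target leukaemia cells rose in 6 of 18 tested and none fell (median 0.44). The share raised was 33.3%, against 10.6% of all genes tested, and 12 of the 30 antigens listed were not tested. CLEC12A, a C-type lectin of myeloid cells, rose from 9.37, 10.8 and 13.3 CPM to 71.1, 96.4 and 101 CPM, a log FC of 3.00 ± 0.15 (adjusted p 4.13e-16). CLEC1B lies opposite it and had a log FC of 3.58, and reads of the pair cannot be told apart. The adhesion molecule gene CD44 rose with 1.16 and CD33 with 0.41. Integrin and adhesion genes were divided, with 6 raised and 4 lowered of 13 (median 0.14). Without ITGAX, which was low under DMSO, 5 of 12 rose and 4 fell (median 0.03). ICAM3 rose with a log FC of 2.09, whereas ITGAL, the LFA-1 alpha chain, fell from 409, 448 and 397 CPM to 212, 239 and 230 CPM (log FC −0.88).

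Myeloid transcription factor genes rose in 8 of 29 tested and fell in 6 (median 0.10). Of the 29, 4 reached 2 CPM in fewer than 2 DMSO libraries, BCL6 and MITF among them. Of the other 25, 6 rose and 6 fell (median 0.0). JUN, an AP-1 subunit, rose from 10.8, 12.2 and 8.45 CPM to 51.4, 44.2 and 37.4 CPM (log FC 2.09 ± 0.17, adjusted p 4.5e-11). BCL6, a repressor, rose with 3.11 from 0.407 CPM or less to 3.06 to 3.81 CPM, and MITF and CEBPB rose with 1.69 and 1.15. EGR1, an immediate early gene, fell from 7.33, 10.3 and 6.67 CPM to 1.35, 2.22 and 1.65 CPM (log FC −2.21), and FOS and IKZF1 fell by 1.03 and 0.68 on the log2 scale. SPI1, the master regulator of the myeloid lineage, had a log FC of −0.27 (adjusted p 0.26).

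Cell cycle genes showed modest falls. Of 35 proliferation genes tested 15 fell and none rose, with a median of −0.31. The share lowered was 42.9%, against 10.4% of all genes tested and 22.8% of the highest class by level. CENPA, the centromeric histone, fell from 16.3, 14.2 and 12.2 CPM to 6.95, 8.61 and 7.43 CPM (log FC −0.90), and the replication licensing gene CDC6 fell from 44.4, 52.7 and 46.5 CPM to 29.8, 25.6 and 22.3 CPM (log FC −0.87). E2F1 and CDC20 fell by 0.80 and 0.78 on the log2 scale. MKI67 and TOP2A, which are often used to count cycling cells, had log FC of −0.13 and 0.09 and were not called. Of 12 D cyclin, CDK and CDK inhibitor genes, 4 fell and none rose (median −0.27). CDK6 fell from 331, 316 and 338 CPM to 152, 184 and 170 CPM (log FC −0.96 ± 0.089, adjusted p 6.9e-10), and CCND3 fell by 0.91 on the log2 scale. CDKN1A, the p21 inhibitor of cyclin-dependent kinases, fell as well, from 54.8, 48.0 and 55.3 CPM to 13, 13.9 and 12.1 CPM (log FC −2.02 ± 0.14, adjusted p 9.9e-13).

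Of 29 MYC and ribosome biogenesis genes 9 fell and none rose (median −0.23), with LDHA, which encodes lactate dehydrogenase, at −0.89 and RRP9 at −0.70. The share lowered was 31.0%, against 10.4% of all genes tested and 22.8% of the highest class by level. MYC itself had a log FC of 0.00. Cytosolic ribosomal protein genes rose in 9 of 76 tested and fell in 2 (median 0.10), shares near those of all genes for rises and below them for falls. RPL27 and RPS14 rose with 0.32 and 0.31, and scaling by total counts turned both to −0.09 and −0.11. RPS15 and RPL23A fell by 0.37 each on the log2 scale. The calls of this list were unstable, since 3, 4 and 2 members rose without DMSO replicate 1, 2 and 3, 1 rose without VTP50469 replicate 1, and none fell without DMSO replicate 2 or VTP50469 replicate 1.

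Apoptosis regulators fell in 5 of 23 tested and rose in 2 (median −0.18). The share lowered was 21.7%, against 10.4% of all genes tested and 22.8% of the highest class by level. BCL2 was at 70.3, 81.3 and 74.5 CPM under DMSO and at 24.0, 24.5 and 24.5 CPM under VTP50469 (log FC −1.63 ± 0.13, adjusted p 2.41e-11). The BH3-only genes differed, as BMF rose with 1.39 and PMAIP1 (NOXA) with 0.68, whereas BCL2L11 (BIM) fell by 0.65 on the log2 scale. BCL2L11 was not called without DMSO replicate 3 (adjusted p 0.186) or VTP50469 replicate 1 (0.13), and 2 or 3 members fell without DMSO replicate 1 or 3 or VTP50469 replicate 1 or 2. MCL1 had a log FC of 0.15 and was not called. In the FLT3, STAT5 and SOCS list 5 of 22 fell (22.7%) and none rose, or 1 rose without DMSO replicate 3. The list had a median of −0.08. That median has no stable sign, as it was −0.18 without DMSO replicate 2 and 0.06 without DMSO replicate 3. FLT3, the receptor tyrosine kinase that is mutated in these cells, fell from 103, 101 and 104 CPM to 42.4, 59.2 and 49.3 CPM (log FC −1.03 ± 0.11, adjusted p 1.08e-08). The ERK phosphatase gene DUSP6 fell by 1.29 on the log2 scale and PIM2, a STAT5 target, by 0.95. ETV4 fell from 15 counts to 2, a ratio of 6.5 with an interval of 1.51 to 58.6, and its call (adjusted p 0.0457) was lost without DMSO replicate 1 or 3 or VTP50469 replicate 1 or 3 (0.101 to 0.178).

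Genes of lipid and amino acid synthesis fell in larger numbers. Of 29 cholesterol and fatty acid synthesis genes tested 17 fell (58.6%, against 10.4% of all genes tested) and none rose. The median was −0.56, and 11 fell without DMSO replicate 1. SREBF1, the transcription factor of fatty acid synthesis, fell from 15.3, 10.8 and 14.7 CPM to 2.92, 2.50 and 3.58 CPM (log FC −2.18 ± 0.30, adjusted p 2.28e-06). FADS2, a desaturase, fell from 30.6, 24.0 and 33.6 CPM to 5.83, 7.23 and 5.51 CPM (log FC −2.25). SCD, which makes monounsaturated fatty acids, and FASN, the fatty acid synthase, fell by 1.39 and 1.01 on the log2 scale. Of 30 genes of the ATF4 amino acid response 16 fell (53.3%) and 2 rose (median −0.51). PHGDH, which opens serine synthesis, fell from 31.0, 39.9 and 35.6 CPM to 4.71, 5.56 and 7.43 CPM (log FC −2.59 ± 0.19, adjusted p 7.65e-12). GPT2 and PSAT1 fell by 1.89 and 1.88, CBS by 3.58 and ATF4 by 0.48 on the log2 scale. SLC7A11, the cystine transporter, rose with 1.58, and DDIT3 had a log FC of 0.72 that was not called. Inflammatory and NF-kB genes were evenly divided, with 2 raised and 2 lowered of 13 (median −0.04), or 1 lowered without DMSO replicate 1 or 3 or VTP50469 replicate 1 or 2. TNFSF13B, which encodes BAFF, rose from 63.8, 54.6 and 62.7 CPM to 178, 171 and 173 CPM (log FC 1.52), and TNF fell by 1.18 on the log2 scale.

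Transcripts of the mitochondrial genome moved apart from each other. Of 15 tested 7 fell (46.7%, against 10.4% of all genes tested) and 2 rose (median −0.39). MT-ATP6 fell from 2760, 3050 and 3050 CPM to 1210, 1330 and 1400 CPM (log FC −1.17 ± 0.10, adjusted p 1.5e-10), and the overlapping MT-ATP8 fell with −1.01. MT-ND2, MT-ND4 and MT-ND3, subunits of complex I, fell by 0.91, 0.61 and 0.53 on the log2 scale. MT-RNR2, the large ribosomal RNA, rose from 29600, 30700 and 33900 CPM to 68600, 64900 and 75700 CPM (log FC 1.15 ± 0.095, adjusted p 7.09e-11), and MT-RNR1, the small one, rose with 1.22. Outside the mitochondrion, MALAT1, an abundant nuclear lncRNA, rose from 1830, 1690 and 1830 CPM to 2710, 3250 and 3330 CPM (log FC 0.80). The abundant row ENSG00000272060 rose with 0.72, and neither it nor MALAT1 was called with scaling by total counts.

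Genes outside the lists gave some of the largest changes. IRX2, a homeobox gene, had no count in any DMSO library and 13.7, 9.17 and 9.91 CPM under VTP50469, with 130 counts in all. It was at least 50-fold higher against a floor of 3 counts over the DMSO group. GASK1B, which encodes a Golgi-associated protein, rose from 0.204, 0.245 and 0.889 CPM to 14.1, 8.61 and 10.5 CPM (log FC 4.57). With CYBB and LYZ, both were among the 10 largest rises of genes with a symbol, at least 10 CPM and groups apart, and the other 6 were non-coding RNAs. IRX2, GASK1B, CYBB and LYZ were under 2 CPM in every DMSO library, and a ranking by fold change favours such genes. The 5S pseudogenes RNA5SP248 and RNA5SP202 rose with 6.31 and 5.36, the small nucleolar RNAs SNORD14E, SNORD83A and SNORD46 with 4.91, 4.87 and 4.09, and the host transcript MIR663AHG with 4.39. In these libraries of 3′ ends, whether counts of such RNAs follow their amount was not tested. SNORD46 was at 3.06, 2.45 and 2.22 CPM under DMSO and at 39.5, 43.4 and 50.9 CPM under VTP50469. RPL3, the host gene of SNORD83A, had a log FC of 0.05 and was not called, and HSPA8, the host gene of SNORD14E, had −0.61. Among the large falls, IGLL1, the surrogate light chain of pre-B cells, fell from 109, 134 and 128 CPM to 6.73, 8.06 and 11.3 CPM (log FC −3.84). The proteoglycan genes SDC2 and CSPG4 fell by 2.82 and 2.79 on the log2 scale. CDK6-AS1 had 140 counts under DMSO and 3 under VTP50469, a ratio of 40.4 with an interval of 13.6 to 198, and it lies opposite CDK6.

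Promoter letters of raised and lowered genes differed in CG content. Windows of 300 bases were read for 10987 genes tested. Those of 1150 raised genes held a mean of 23.3 CG dinucleotides, those of 1157 lowered genes 28.9 and those of genes not called 26.6. A window with 3 CG or fewer was found for 12.3% of raised, 2.51% of lowered and 4.84% of all genes. Among motifs, the CEBP-like TTGCNNAA stood in 9.04% of raised and 4.75% of lowered windows, against 7.02% of all. The PBX–HOX-like TGATTNAT stood in 2.0% of raised and 1.47% of lowered windows, against 1.1% of all. GGAAGT stood in 24.5% of raised and 28.2% of lowered windows, and GAGGAAG in 15.8% and 14.2%. The MEIS-like TGACAG stood in 14.2% of raised and 11.0% of lowered windows against 12.8% of all, and the E-box CACGTG in 8.78% and 10.9% against 10.4%. The TATA-like TATAAA stood in 8.09% of raised and 6.48% of lowered windows against 5.76%. These shares were not tested. Each motif was searched on both strands and GGAAGT and GAGGAAG can share letters. Windows that are poor in CG are richer in A and T, as the mean GC content was 62.3% for raised and 66.6% for lowered genes.

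VTP50469 and SGC0946 could be compared in the same cells, as each drug acts on a different enzyme or adaptor of the MLL fusion complex. Doses and times differ, with 500 nM for 48 h against 5 μM for 72 h, so the differences belong to these treatments as given and not to the targets alone. Of 11252 genes, 583 (5.18%) differed directly between the drugs, 281 (2.50%) higher and 302 (2.68%) lower under VTP50469, whereas scaling by total counts gave 97 higher and 5241 lower. Among MLL fusion and Menin targets 12 of 27 were lower and 1 higher under VTP50469. MEF2C was at 51.5, 47.2 and 47.6 CPM under SGC0946 and at 0.897, 3.33 and 2.75 CPM under VTP50469, a log FC of −4.43 (adjusted p 4.68e-15). MEIS1 was at 17.7, 15.8 and 11.1 CPM under SGC0946, and lower under VTP50469 by a log FC of −3.50 (adjusted p 2.06e-10). IGLL1 at −3.39, PTPN14, a phosphatase of the Hippo pathway, at −2.45 and IGF2BP2 at −2.15 were lower as well. PTPN14 was at 25.5, 24.8 and 30.5 CPM under SGC0946 and at 3.14, 7.78 and 4.13 CPM under VTP50469. HOXA10 did not pass the test between the drugs (log FC 0.043 ± 0.16, adjusted p 0.936), nor did HOXA9 (0.51 ± 0.19, adjusted p 0.122).

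On the side of higher levels, CYBB was at 7.08, 7.64 and 4.65 CPM under SGC0946, and higher under VTP50469 by a log FC of 2.79 (adjusted p 1.02e-11). LYZ was higher by 1.93 and HLA-DRA by 0.86. Monocyte and macrophage markers were higher under VTP50469 in 5 of 18 and lower in none, and lysosome genes were higher in 4 of 37 and lower in 1. Of 29 lipid synthesis genes 3 were lower, and of 7 secondary granule genes 1 was higher and 1 lower. SNORD83A was higher by 2.87 and the Y RNA row ENSG00000206662, which had no DMSO count, was at 0.955 to 1.42 CPM under SGC0946 and at 12.2 to 27.4 CPM under VTP50469. The largest of the other differences fell on rows without an annotation entry, such as ENSG00000258486 with a log FC of 3.30. The no-feature share was 8.11 to 9.921% under SGC0946, between the ranges of the other groups.

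The same drug, dose and labelled times were used in MOLM13, with libraries that share nothing with those of MV4;11 and a guide of its own. In MOLM13, 546 genes rose (4.61%) and 577 fell (4.88%) of 11833 tested. Of 10699 genes tested in both lines, 250 rose in both, which is 22.3% of those raised in MV4;11 and 50.4% of those raised in MOLM13, against 4.64% of these genes raised in MOLM13. In all, 234 fell in both, 20.1% of the lowered genes of MV4;11 and 44.2% of those of MOLM13, against 4.95%. Genes raised in MV4;11 had a median log FC of 0.94 there and 0.25 in MOLM13, and lowered genes had −0.56 and −0.21. Calls of opposite direction numbered 19 for genes raised in MV4;11 and 19 for genes lowered there.

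The difference between the responses was tested directly. It passed for 402 genes (3.40%), 217 with a more positive (1.83%) and 185 with a more negative (1.56%) response in MV4;11, and scaling by total counts gave 109 and 1323. The count depended on single libraries. It was 234 without VTP50469 replicate 3 and 249 without DMSO replicate 3 of MV4;11, and 648 without DMSO replicate 2, 245 without VTP50469 replicate 1 and 259 without VTP50469 replicate 3 of MOLM13. MEIS1 did not pass, as it fell from 17.1, 17.6 and 13.9 CPM to 0.418, 0.393 and 1.13 CPM in MOLM13 (difference of log FC 0.39 ± 0.53, adjusted p 0.765). HOXA9 was at 71.0, 70.2 and 60.1 CPM in MOLM13 under DMSO and at 38.3, 38.4 and 40.0 CPM under VTP50469, a fall within that line, but the difference between the lines did not pass either (0.57 ± 0.20, adjusted p 0.13). MEF2C fell from 154, 177 and 143 CPM to 16.6, 19.0 and 17.9 CPM in MOLM13, and the fall was larger in MV4;11 by a log FC of −2.79 ± 0.29 (adjusted p 1.41e-05). EMB, IGF2BP2 and SATB1 fell further in MV4;11 too, by −1.62, −1.50 and −0.99.

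**Figure D3:**
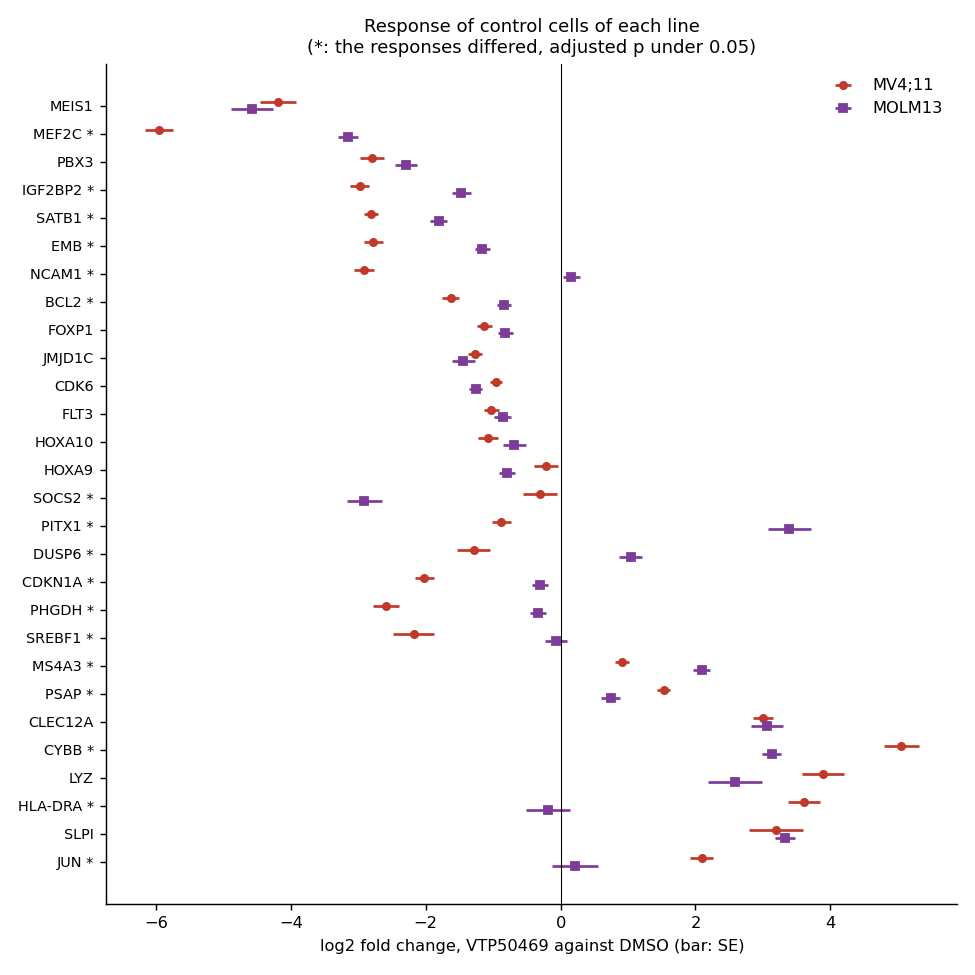
Log2 fold change of VTP50469 against DMSO (x axis, with bars for the SE) of selected genes in MV4;11 (circles) and MOLM13 (squares), where an asterisk marks responses that differed between the lines at an adjusted p under 0.05. MEIS1 is at −4.19 and −4.58, NCAM1 is at −2.91 in MV4;11 and 0.16 in MOLM13, and PITX1 and DUSP6 lie on opposite sides of 0.

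Several genes that changed in MV4;11 had another response in MOLM13. NCAM1 was at 30.6, 29.8 and 29.9 CPM under DMSO and at 36.3, 35.9 and 28.6 CPM under VTP50469 in MOLM13 (difference −3.06 ± 0.20, adjusted p 4.71e-08). HLA-DRA was at 1.01 to 2.38 CPM under DMSO and at 1.53 to 1.75 CPM under VTP50469 in MOLM13 (difference 3.81 ± 0.44, adjusted p 5.13e-05), and no MHC class II gene of 10 tested was called in that line. CDKN1A had a log FC of −0.31 in MOLM13 (difference −1.70 ± 0.19), PHGDH −0.34 (difference −2.24) and SREBF1 −0.067 (difference −2.11). Of 30 lipid synthesis genes 1 fell in MOLM13 and 6 had a more negative response in MV4;11, whereas of 31 ATF4 genes 15 fell in MOLM13 and the responses differed for 3. DUSP6 fell in MV4;11 and rose in MOLM13 (difference −2.32 ± 0.29, adjusted p 8.58e-05). PITX1, a homeobox gene, fell from at least 546 CPM to at most 338 CPM in MV4;11, and rose in MOLM13 from at most 0.596 CPM to at least 3.93 CPM. Maturation genes rose in MOLM13 as well, with 11 of 21 monocyte markers and 9 of 9 secondary granule genes tested raised there, against 4.61% of all genes tested. The lists hold 36 and 25 genes, and the rest did not pass the filter, which favours rises among the members tested. These members were not split by their DMSO level in MOLM13. CLEC12A had a difference of −0.053 ± 0.28 (adjusted p 0.967). CYBB rose in MOLM13 from at most 33.3 CPM to at least 227 CPM, and its log FC was larger in MV4;11 by 1.94 ± 0.31 (adjusted p 0.00114).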

How the data were processed

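Gene counts were used as deposited. Per the methods of the study, the authors trimmed 3′-end reads with bbmap and made whole-number counts per gene with STAR on the human genome (hg38), with no normalisation. The strand setting of these counts is not given in the sources used here. An organism label names mouse for some samples, although the identifiers are human. Lines without a gene (21.36 to 21.99% of counts under DMSO and 24.23 to 27.14% under VTP50469) and 51 columns of other samples were left out.

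Genes that reached 2 CPM in 2 or more libraries were tested with edgeR 4.0.16 (glmQLFit and glmQLFTest, TMM on the genes kept, R 4.3.3) over 18 MV4;11 libraries in 6 groups, or 12 libraries for the difference between the lines, with Benjamini-Hochberg adjustment and a threshold of 0.05. SE is the absolute log FC divided by the square root of F. CPM on TMM-scaled library sizes does not sum to a fixed total. Symbols, positions and promoter starts came from GENCODE release 44 (94.7% of genes tested had a symbol of their own), and promoter bases from hg38 in place of a RefSeq table. Ratios of low counts have exact binomial intervals of 95%, with a floor of 3 counts over a group at 0. The models were tested on simulated counts. Same-numbered DMSO and VTP50469 libraries correlated at 0.056, 0.072 and 0.0303 in their deviations from the group means and were not treated as pairs.

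The libraries, the 28 gene lists (787 entries, 9 without a row) and the tests were chosen with earlier results of these data known. Named genes were those the study names for its leukaemia lines, the 10 largest rises and falls with a symbol, at least 10 CPM and groups apart, the 5 largest differences of mean CPM each way, up to 4 members of each list and the 5 largest differences each way in the other comparisons; other members were named after their values were seen, and some genes of this rule are not reported here. Alternatives covered scaling, filters, DESeq2 1.42.0, the libraries fitted and thresholds, and those on protein-coding rows or without abundant rows under total counts were added after seeing the data, as was the split of list members by their DMSO level.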

Additional observations from a re-analysis of the deposited data

Results flagged for a closer look

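The response to VTP50469 differed between MV4;11 and MOLM13, by the test of the difference itself, for 22 genes among the largest differences, the genes named by the study and those that changed most in MV4;11. Further genes that differed stand in the report, such as HLA-DRA. The differences of log FC below are MV4;11 minus MOLM13, and negative values mean a lower response in MV4;11. PITX1 had −4.26, MLXIPL, a glucose-responsive transcription factor, −3.07, NCAM1 −3.06, MEF2C −2.79 and TRGC1, a T cell receptor gamma constant gene, −2.65. PITX1, MLXIPL and TRGC1 fell in MV4;11 and rose in MOLM13, where TRGC1 went from at most 2.31 CPM to at least 4.58 CPM. On the positive side, ZNF521 had 6.84, SNORD46 6.2, PLIN2, a lipid droplet protein gene, 5.34, SNORD14E 5.21 and TMEM255A 4.97.

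Several of these values rest on few counts in a line, where a fitted change depends on the prior count. ZNF521, a zinc-finger cofactor of progenitors, fell in MOLM13 from 43.3, 56.9 and 41.2 CPM to 2.37, 2.36 and 3.38 CPM and had 1 count under DMSO and 7 under VTP50469 in MV4;11. PLIN2 rose in MV4;11 from 8.15, 4.9 and 7.56 CPM to 26.7, 27.5 and 23.1 CPM and had 5 counts and 0 in MOLM13. SNORD46 had 6 counts under DMSO and 1 under VTP50469 in MOLM13, and SNORD14E had 5 and 4. MLXIPL lost its call on leaving out any MV4;11 library (adjusted p 0.0633 to 0.103) and without MOLM13 VTP50469 replicate 1 (0.0585) or 3 (0.0528). SNORD14E lost it without MOLM13 DMSO replicate 3 (0.134), PLIN2 without MOLM13 DMSO replicate 1 (0.0554) and TMEM255A without MV4;11 VTP50469 replicate 1 (0.112) or 3 (0.0716).

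Among the genes that the study names or that changed most in MV4;11, EMB had a difference of −1.62, SDC2 −2.21, IGF2BP2 −1.5 and SATB1 −0.99. SOCS2 had 2.6, as it fell from at least 12.5 CPM to at most 2.49 CPM in MOLM13 while its groups overlapped in MV4;11. CYBB had 1.94 and RNA5SP202 4.03. Of the mitochondrial transcripts, MT-ATP6 had −1.21, MT-ND4 −0.77 and MT-ND3 −0.62, and the ribosomal MT-RNR2 and MT-RNR1 had 0.85 and 1.03. Rows without an annotation entry, of which ENSG00000266658 took 22.9% or more of the gene counts in each DMSO and VTP50469 library of MV4;11, differ in share between the lines, and the part of library composition in these differences was not tested.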

How the results depend on the processing

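Scaling by total counts was the setting that changed the results most. It called 4485 genes for VTP50469 against DMSO (median −0.41), 5338 against SGC0946 and 1432 for the difference between the lines, and it reversed RPL27 (−0.09) and RPS14 (−0.11). With the abundant rows left out first, the same scaling called 2551. Other settings kept the counts within 1.5 times, with 2088 to 2714 genes for the main comparison under DESeq2, other filters, other scaling factors and fewer libraries, and 1722 when a log FC over 0.5 was also required. The same alternatives gave 513 to 621 genes against SGC0946 and 402 to 598 for the difference between the lines. Leaving out each library in turn gave 1767 to 1989 genes against DMSO, 403 to 447 against SGC0946 and 234 to 648 for the difference between the lines. A replicate block gave 2387, 623 and 563 genes, and every DMSO and VTP50469 library of MV4;11 correlated best with its own number, a hint from the data and not from the design. Of the genes named for the main comparison, 1 lost its call with the block (ETV4, adjusted p 0.0526), 8 under DESeq2, AFF1, BCOR, ETV4, IRF7 and MLLT10 among them, 10 when a log FC over 0.5 was required, 13 with scaling by total counts, 4 with nuclear protein-coding rows scaled by their sum, and 6 to 15 without each library. The protein-coding scaling also moved 18 counts or medians of lists, and it turned the median of the FLT3, STAT5 and SOCS list to 0.04. Mean CG of raised and lowered windows was 19.9 and 26.4 for changes over 2-fold, and 8.68 and 10.9 in the 100 bases before the start. With 4465551 to 5812045 counts a library, of which the abundant rows took a large part, genes such as ITGAM and most secondary and tertiary granule genes were too low to be tested.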
